A study of Zea mays with 6 samples.

Results

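The AP2/EREBP transcription factors of maize (Zea mays) were compared between root tips of plants under negative pressure irrigation (NPI) and root tips of a second irrigation group called DI. A gene was counted as a member where its table name or description held AP2-EREBP, ethylene-responsive transcription, ethylene-responsive element, dehydration-responsive element, DREB, AP2 domain or AP2-like, and 222 of 45953 genes did. Of these, 191 bear the name AP2-EREBP-transcription factor followed by a number, written here as EREB with that number, and the others go by their gene identifier. By the wording, 95 members were named as ERF, 18 as DREB and 14 as AP2, and 95 named no group. Relatives filed under other names, among them branched silkless1 and glossy15, were not counted, and EREB197 and EREB212, described as APETALA 2, stand among the members of no named group.

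There were 3 NPI libraries and 3 DI libraries of poly(A) RNA, read in pairs. Under NPI, soil draws its water from a supply kept below atmospheric pressure. For DI, the treatment label reads deficit irrigation and the sample description reads drip irrigation, so the abbreviation is kept, and DI-2 is numbered by its title although its description numbers it as repeat 3. The sources used here do not state genotype, plant age or length of treatment. Nothing in the labels ties the libraries to separate plants, so every p-value measures the spread between libraries, which may be technical.

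ERF proteins bind the GCC box in target promoters and act downstream of ethylene and jasmonate, either switching genes on or, where they carry an EAR motif, switching them off. DREB proteins bind the dehydration-responsive element and are known for raising tolerance of cold and water deficit. AP2-type proteins such as BABY BOOM and some of the AINTEGUMENTA-LIKE (AIL) factors, those also called PLETHORA in Arabidopsis, maintain the stem cells of the Arabidopsis root tip.

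Library NPI-2 stood apart from NPI-1 and NPI-3. Over the 116 members that were tested, Pearson correlations of log2(FPKM + 1) averaged 0.847 ± 0.078 among NPI libraries (SD, 3 pairs), 0.865 ± 0.033 between an NPI and a DI library (SD, 9 pairs) and 0.948 ± 0.0085 among DI libraries (SD, 3 pairs). NPI-1 and NPI-3 correlated with each other at 0.922, and NPI-2 with them at 0.853 and 0.766. FPKM is the deposited level per transcript length and library size, and these correlations run across genes, which are not replicates. Total counts ran from 57792439 to 71957443 per library. The 4 root cap genes summed to 28.0, 141 and 39.7 FPKM in NPI-1, NPI-2 and NPI-3, against 231, 157 and 110 FPKM in the DI libraries in the same order. One of them, root cap periphery gene2, was at 0 in the 3 NPI libraries and at 4.09, 0.24 and 0.03 FPKM in DI, and was not tested. In bulk root tips, fewer cells of a type and less RNA per cell cannot be told apart.

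A member was tested where its mean over the 6 libraries reached 1 FPKM, which 116 members did (52.3%, beside 47.7% of all genes). The tested members were 56 ERF, 12 DREB and 6 AP2 genes and 42 of no named group. The other 106 averaged at most 0.94 FPKM, no library of theirs went above 2.3 FPKM, and 35 of them had no count in any library. Among the tested members, 11 averaged above 100 FPKM, 63 between 10 and 100 FPKM and 42 between 1 and 10 FPKM. The 10 highest held 60.7%, 42.7% and 53.1% of all member FPKM in NPI-1, NPI-2 and NPI-3, against 49.6%, 50.5% and 55.7% in DI-1, DI-2 and DI-3.

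EREB148, an ERF-type protein on chromosome 8, was the most abundant member, with 1399.8, 365 and 982 FPKM in NPI and 474, 734 and 1029 FPKM in DI. EREB200, described as ERF-like, followed with 405, 149 and 587 FPKM in NPI and 425, 587 and 509 FPKM in DI. In both genes the groups overlapped and NPI-2 was the lowest of the 6 libraries. Their edgeR log2 differences, NPI minus DI, were 0.40 ± 0.58 and -0.28 ± 0.55 (SE, n = 3 each; edgeR adjusted p = 0.727 and 0.802), and the second changed sign without NPI-2, at 0.13. EREB179, of no named group, averaged 292 ± 127 FPKM in NPI and 225 ± 40.1 FPKM in DI (SD, n = 3 each), and EREB18, an AP2 domain protein, averaged 283 ± 77.8 FPKM in NPI and 192 ± 59.5 FPKM in DI.

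Most tested members had higher estimates in NPI, both among ERF genes and among members of no named group. The members of smallest p were EREB17 and EREB118 on the higher side and EREB57 on the lower side. Of 116 members, 84 had a log2 difference above 0, with a median of 0.43, while 54.0% of the 21902 tested genes lay above 0 with a median of 0.07. None of these differences passed the threshold of an edgeR adjusted p of 0.05, which only 3 of all tested genes did (0.0137%). At an unadjusted edgeR p of 0.05, 23 members were higher in NPI and 7 lower (19.8% and 6.03%), beside 12.3% and 8.52% of all tested genes. DESeq2, at an adjusted p of 0.05, called 14 members higher and 3 lower in NPI, beside 6.84% and 4.53% of all genes. At its unadjusted p of 0.05 it counted 28 higher and 9 lower, beside 14.7% and 10.3%.

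The libraries of the groups did not overlap in FPKM for 18 members that were higher in NPI (15.5%) and 9 that were lower (7.76%), beside 13.0% and 13.7% of all tested genes. Summed over members, FPKM was 6767, 3930 and 6859 in NPI-1, NPI-2 and NPI-3, against 3783, 4960 and 5443 in DI-1, DI-2 and DI-3. The sums of the groups overlapped through NPI-2, which was below 2 of the DI libraries. Without NPI-2, the median log2 difference was 0.70, 88 members lay above 0, and edgeR called 15 members higher and 2 lower at an adjusted p of 0.05, beside 6.65% and 5.19% of all genes. At an unadjusted edgeR p of 0.05, 38 members were then higher and 9 lower, beside 18.6% and 16.7% of all genes. Of the 17 members called without NPI-2 and the 17 called by DESeq2, 9 were the same.

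Transcript length and single libraries also moved with these differences. Members' transcripts were short, with a median relative length of 0.463 of the median gene, and with the trend of log2 differences with length removed, the members' median was 0.23 and 70 of 116 lay above 0. NPI-3 was the highest library for 42 members (36.2%, beside 14.7% of all tested genes), and NPI-2 was the highest for 20 (17.2%, beside 27.3%). NPI-2 was the lowest library for 38 (32.8%, beside 15.5%). Without NPI-3 the median log2 difference was 0.14. A list of 75 genes whose name or description held xylem, IRX or laccase moved in the same libraries. It summed to 807, 384 and 993 FPKM in NPI-1, NPI-2 and NPI-3 and 440, 460 and 556 FPKM in the DI libraries. NPI-2 was also the lowest of the 6 libraries for genes of ethylene synthesis and signalling, at 699 FPKM beside 1434 and 1663 FPKM in NPI-1 and NPI-3. The same held for the lists below of low oxygen, dehydration and root hair genes. It did not hold for dividing cells, root cap, casparian strip and suberin or leaf genes. The part of any of these lists in the members' differences was not tested. Of the 40 tested genes of the xylem list, 32 lay above 0, and 23 genes of that list were at 0 in all libraries.

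**Figure D1:**
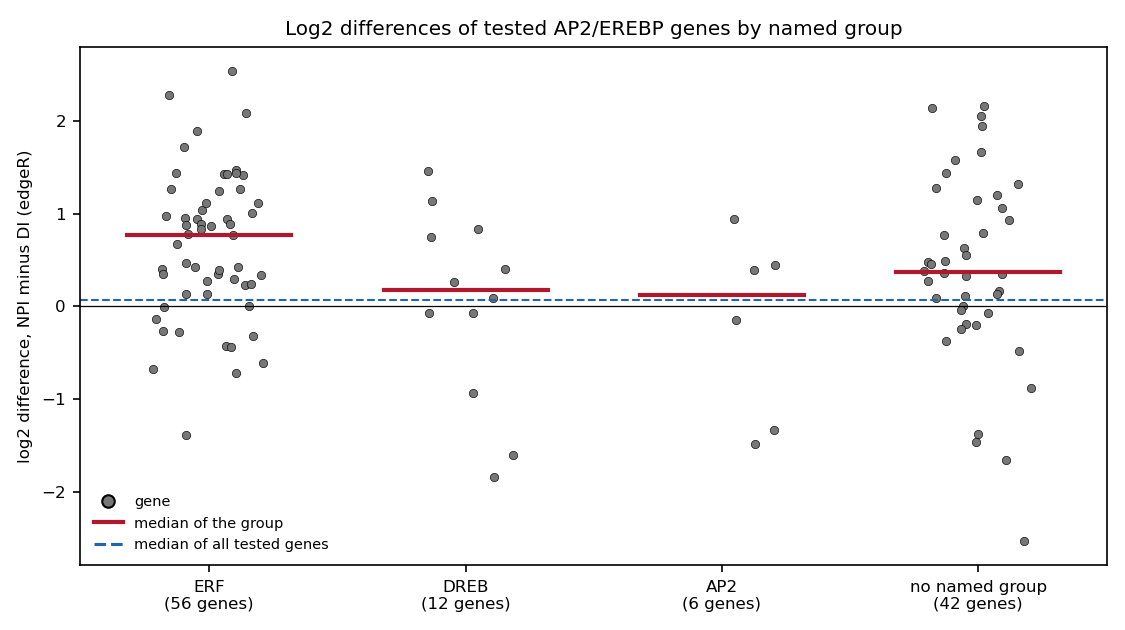
Log2 difference (NPI minus DI, edgeR) of each tested AP2/EREBP gene by named group, with the group median as a thick line and the median of all tested genes (0.07) dashed. ERF genes have a median of 0.78, DREB genes 0.17, AP2 genes 0.12 and genes of no named group 0.37.

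ERF genes had a median log2 difference of 0.78, with 45 of 56 above 0. The median of NPI-2 alone was -0.21, the group median was 0.28 without NPI-3, and with the length trend removed it was 0.43 with 38 of 56 above 0. At an unadjusted edgeR p of 0.05, 13 ERF genes were higher and 1 was lower in NPI (23.2% and 1.79%, beside 12.3% and 8.52% of all tested genes). The strongest of them, EREB17 (Zm00001d052229, described as ERF056, chromosome 4 from 183995749 to 183996699), had 382, 304 and 275 FPKM in NPI, against 135, 98 and 141 FPKM in DI. All 3 NPI libraries stood above all 3 DI libraries, and the level was 2.67-fold higher in NPI (log2 difference 1.42 ± 0.29, SE, n = 3 each; edgeR adjusted p = 0.0888). A second gene described as ERF056, EREB109 (Zm00001d020267, chromosome 7), had 92.2, 144 and 57.9 FPKM in NPI, against 49.3, 38.5 and 36.5 FPKM in DI, again with no overlap (log2 difference 1.27 ± 0.31, SE; edgeR adjusted p = 0.113). The 6 tested genes described as ERF053, ERF055 or ERF056 all had positive estimates. Their library medians were 0.71, 0.83 and 1.15 in NPI-1, NPI-2 and NPI-3, so that the NPI-2 median was not the lowest. The other 4 averaged under 5 FPKM and their groups overlapped. By gene, NPI-2 was the highest NPI library in EREB109 and EREB101 and the lowest in EREB76 and EREB154.

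Of the genes described as ERF105, ERF109 or ERF112, 2 stood apart between the groups, in opposite directions. EREB116 (ERF112) was a gene of low level, with 4.74, 2.24 and 2.37 FPKM in NPI and 0.47, 0.25 and 0.93 FPKM in DI (log2 difference 2.55 ± 0.66, SE, n = 3 each; edgeR adjusted p = 0.119). EREB211 (Zm00001d005892, chromosome 2), described as ERF109, which in Arabidopsis links jasmonate to auxin synthesis in lateral root formation, had 24.4, 14.4 and 10.4 FPKM in NPI, against 26.6, 66.3 and 42.6 FPKM in DI. Its highest NPI library lay just under its lowest DI library (log2 difference -1.39 ± 0.43, SE; edgeR adjusted p = 0.154, DESeq2 adjusted p = 0.0343).

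The remaining 3 of those genes were carried by NPI-2. Zm00001d029940 (ERF105) had 1.74, 29.2 and 0.89 FPKM in NPI and 9.87, 4.14 and 2.34 FPKM in DI. EREB119 (ERF112) had 0.47, 16.7 and 0.31 FPKM in NPI and 4.31, 6.36 and 2.78 FPKM in DI, and EREB87 (ERF105) had 0.40, 6.15 and 0.26 FPKM in NPI and 3.27, 0.66 and 1.96 FPKM in DI. In each, NPI-2 was the highest of the 6 libraries, as for 27.3% of all tested genes, and NPI-1 and NPI-3 were the lowest. With NPI-2 their log2 differences were 0.88, 0.30 and 0.13, and without it -1.92, -3.32 and -2.37, of which EREB119 passed (edgeR adjusted p = 0.0326 without NPI-2).

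Genes named after the Arabidopsis repressors ERF3, ERF4, ERF7 and ERF12, which carry EAR motifs, had positive estimates in 10 of 11 cases, with a median log2 difference of 0.87. NPI-3 was the highest library for 10 of the 11, and the median was 0.19 without it. NPI-2 alone had a median of -0.71, and with the length trend removed the class median was 0.51. Zm00001d014565 (ERF7) had 16.4, 9.04 and 19.0 FPKM in NPI, against 6.44, 5.72 and 5.52 FPKM in DI, and EREB138 (ERF3) had 22.3, 16.02 and 32.5 FPKM in NPI, against 8.89, 9.26 and 13.8 FPKM in DI. Both showed no overlap and were called without NPI-2 (log2 differences 1.74 and 1.52, edgeR adjusted p = 0.0299 and 0.0457), beside 1.44 and 1.25 with it (edgeR adjusted p = 0.146 and 0.170). The most abundant of the class, EREB147 (ERF4), averaged 85.6 ± 31.4 FPKM in NPI and 75.8 ± 9.42 FPKM in DI (SD, n = 3 each), within the spread of its libraries.

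ABR1 dampens the response to abscisic acid in Arabidopsis, and both maize genes described as ABR1 had higher means in NPI. EREB174 (Zm00001d042717, chromosome 3 from 178106747 to 178109443) had 127, 75.3 and 136 FPKM in NPI, against 51.6, 53.3 and 70.6 FPKM in DI. The groups did not overlap, although NPI-2 lay close to DI-3 (log2 difference 1.04 ± 0.35, SE, n = 3 each; edgeR adjusted p = 0.171). EREB113 had 55.1, 16.6 and 120 FPKM in NPI and 17.7, 30.9 and 27.8 FPKM in DI, so that NPI-2 was its lowest library. Left without NPI-2, both were called (edgeR adjusted p = 0.0325 for EREB174 and 0.0420 for EREB113), with log2 differences of 1.31 and 1.96.

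RAP2-2 and RAP2-3 are Arabidopsis group VII factors, whose proteins are stable only when oxygen is short. The 6 tested maize genes under these names had a median log2 difference of 0.35, and 5 lay above 0. The median was 0.71 without NPI-2 and 0.18 without NPI-3. EREB193 (RAP2-2) had 314, 67.6 and 303 FPKM in NPI and 151, 208 and 224 FPKM in DI, and EREB14 (RAP2-2) had 250, 111 and 136 FPKM in NPI and 118, 131 and 162 FPKM in DI. In both, NPI-2 was the lowest of all libraries and NPI-1 the highest. EREB90 (RAP2-3, chromosome 5) was the one with a lower mean, with 31.4, 20.8 and 15.7 FPKM in NPI and 37.2, 36.7 and 39.5 FPKM in DI, without overlap (log2 difference -0.68 ± 0.29, SE, n = 3 each; edgeR adjusted p = 0.242).

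Genes described as CRF4, a cytokinin response factor, or as ERF118 had positive estimates in 5 of 6 cases, with a median log2 difference of 1.20 that was 0.64 without NPI-2. The exception and the most abundant of them, EREB64 (ERF118), had 53.9, 22.7 and 52.0 FPKM in NPI, against 61.7, 100.4 and 66.2 FPKM in DI. Its groups did not overlap and NPI-2 was its lowest library (log2 difference -0.72 ± 0.42, SE, n = 3 each; edgeR adjusted p = 0.370). EREB208 (CRF4) had 6.03, 36.2 and 9.05 FPKM in NPI and 8.10, 10.9 and 4.45 FPKM in DI, and EREB80 (CRF4) had 5.34, 10.7 and 2.21 FPKM in NPI and 2.14, 2.81 and 1.82 FPKM in DI. NPI-2 was the highest library in both, and their groups overlapped. EREB50 (CRF4) had 32.2, 26.1 and 6.85 FPKM in NPI and 6.60, 11.9 and 9.08 FPKM in DI. Zm00001d005203 (ERF118) differed without overlap, with 13.0, 6.23 and 10.1 FPKM in NPI and 2.32, 4.07 and 5.07 FPKM in DI (log2 difference 1.44 ± 0.48, SE, n = 3 each; edgeR adjusted p = 0.167, DESeq2 adjusted p = 0.0477).

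Another ERF gene of low level, EREB94 (ERF117), had 5.17, 2.45 and 2.56 FPKM in NPI, against 0.48, 0.37 and 1.32 FPKM in DI, which made it 4.87-fold higher in NPI (edgeR adjusted p = 0.134). The 3 tested genes described as ERF035 had log2 differences from 0.95 to 1.72, and each was highest in NPI-3, without which their median was 0.41. Genes named after the activators ERF1A and ERF1B, which respond to ethylene in Arabidopsis, overlapped between groups. EREB195 (ERF1A) had 18.1, 16.6 and 48.4 FPKM in NPI and 32.2, 22.97 and 26.9 FPKM in DI, and EREB177 (ERF1B) had 4.42, 5.10 and 32.9 FPKM in NPI and 7.61, 12.5 and 15.3 FPKM in DI. NPI-3 was the highest library in both. Another gene described as ERF1A, EREB2, had 14.9, 18.7 and 15.4 FPKM in NPI and 19.4, 15.5 and 28.4 FPKM in DI. Its highest library was DI-3, and its log2 difference was -0.32 ± 0.31 (SE).

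**Figure D2:**
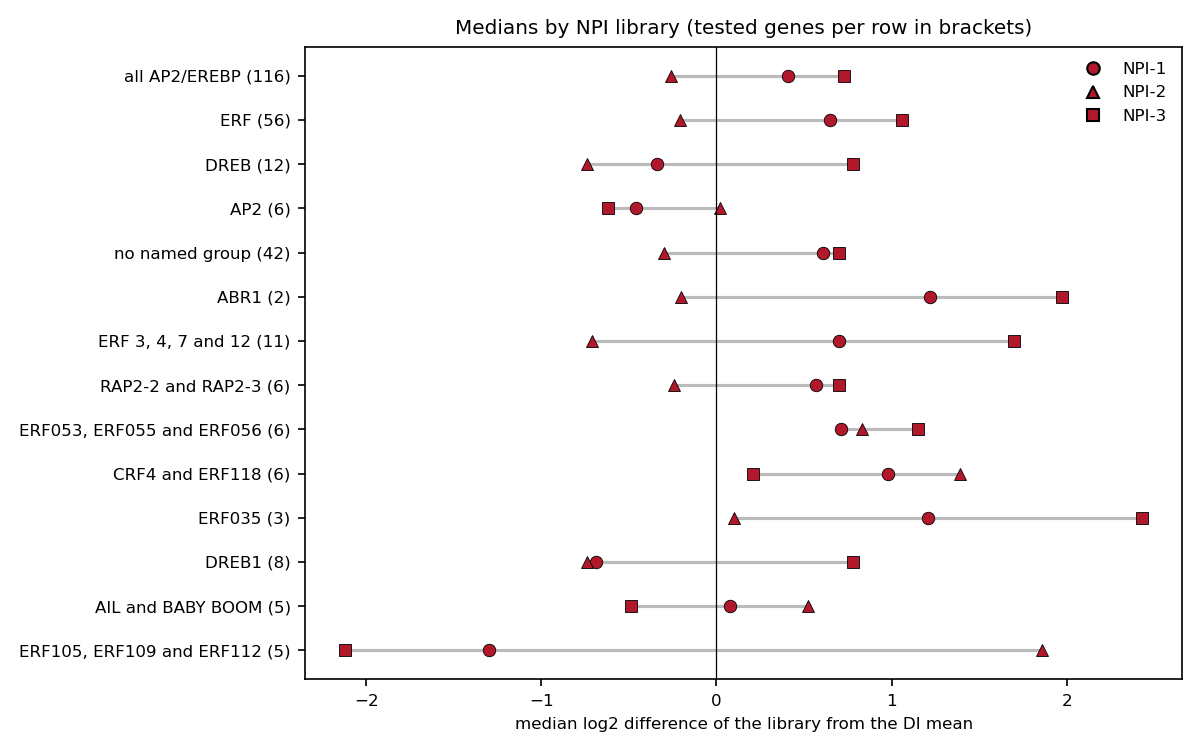
Median log2 difference of each NPI library from the DI mean, for all tested AP2/EREBP genes, for the 4 groups by name and for classes of like description, with the number of genes in brackets. Over all 116 genes the medians are 0.41, -0.26 and 0.73 in NPI-1, NPI-2 and NPI-3, while in the class of ERF105, ERF109 and ERF112 only NPI-2, at 1.86, lies above 0.

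DREB genes were divided, with 7 of 12 above 0 and a median log2 difference of 0.17 that was -0.60 without NPI-3. The estimates below 0 were all of DREB1 type, whose Arabidopsis namesakes DREB1A to DREB1C respond to cold and DREB1D to drought. EREB16 (Zm00001d017592, described as DREB1A, chromosome 5 from 201022603 to 201023298) had 8.45, 2.79 and 3.57 FPKM in NPI, against 8.92, 22.6 and 24.9 FPKM in DI. NPI-1 and DI-1 nearly met, and the other NPI libraries were far below the other DI libraries (3.59-fold lower in NPI, log2 difference -1.84 ± 0.59, SE, n = 3 each; edgeR adjusted p = 0.160, DESeq2 adjusted p = 0.0278).

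EREB105 (DREB1D, chromosome 2) had 4.79, 1.29 and 7.09 FPKM in NPI, against 9.53, 13.0 and 21.4 FPKM in DI, again without overlap (log2 difference -1.61 ± 0.70, SE, n = 3 each; edgeR adjusted p = 0.245). EREB79 (DREB1B), the most abundant of the type, had 22.7, 43.3 and 88.3 FPKM in NPI and 51.1, 68.4 and 56.0 FPKM in DI. Its lowest and its highest library were both from NPI, and its log2 difference was -0.07 ± 0.51 (SE). Above 0 lay 3 of the 8 tested DREB1 genes, EREB141 (DREB1B, 1.14), EREB6 (DREB1C, 0.40) and Zm00001d002748 (DREB1B, 1.46), all with overlapping groups. The median of the 8 was -0.07, and without NPI-2 it was 0.14 with 5 above 0. EREB141 had 6.43, 13.7 and 13.1 FPKM in NPI and 1.84, 10.4 and 3.79 FPKM in DI.

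DREB2A drives responses to water deficit and heat in Arabidopsis, and the 2 tested genes described so did not separate the groups. EREB22 had 53.6, 39.5 and 9.81 FPKM in NPI and 8.53, 21.0 and 32.8 FPKM in DI, a log2 difference of 0.75 ± 0.66 (SE, n = 3 each; edgeR adjusted p = 0.548). Zm00001d008665 had 15.4, 7.92 and 20.3 FPKM in NPI and 14.5, 11.9 and 17.8 FPKM in DI, a log2 difference of 0.09 ± 0.43 (SE). EREB156 and EREB47, described as dehydration responsive element binding proteins with no type, had log2 differences of 0.26 and 0.84. EREB156 was widely spread in NPI, with 33.1, 20.3 and 82.4 FPKM, against 34.9, 43.3 and 47.0 FPKM in DI, and EREB47 had 36.6, 26.6 and 52.6 FPKM in NPI and 19.3, 23.1 and 27.2 FPKM in DI.

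Among the 6 tested AP2 genes, 3 lay above 0 and 3 below (median log2 difference 0.12, and -0.46 without NPI-2), and the 2 whose libraries did not overlap were lower in NPI. EREB24 (Zm00001d002025, chromosome 2 from 4628845 to 4634985), described as AIL5, which is active in Arabidopsis lateral root primordia, had 43.1, 111 and 22.99 FPKM in NPI, against 129, 197 and 122.99 FPKM in DI. NPI-2 came close to the DI libraries and the other NPI libraries were well below them (2.54-fold lower in NPI, log2 difference -1.34 ± 0.52, SE, n = 3 each; edgeR adjusted p = 0.210). With NPI-2 left out, the log2 difference was -2.05 and passed (edgeR adjusted p = 0.0311). EREB60, described only as AP2-like, was low in all libraries, with 0.26, 0.91 and 0.61 FPKM in NPI and 2.49, 1.45 and 1.22 FPKM in DI (log2 difference -1.49 ± 0.61, SE; edgeR adjusted p = 0.228).

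Of the BABY BOOM genes, EREB53 changed sign without NPI-2 (log2 difference 0.95, and -0.29 without it). EREB206 did not (-0.15, and -0.64 without it). EREB206 (BABY BOOM 1) had 14.9, 48.6 and 21.9 FPKM in NPI and 25.8, 39.0 and 31.3 FPKM in DI, and EREB53 (BBM) had 8.32, 37.2 and 4.24 FPKM in NPI and 9.45, 8.09 and 7.5 FPKM in DI. EREB163 (AIL1) followed, with 9.84, 21.5 and 5.46 FPKM in NPI and 7.25, 10.8 and 9.0 FPKM in DI. NPI-2 was the highest library for all 3, as for 27.3% of all tested genes, and NPI-3 or NPI-1 the lowest. The median log2 difference of the 5 AIL and BABY BOOM genes was 0.39 with NPI-2 and -0.29 without it, when only EREB187 (AIL1), which was highest in NPI-1, lay above 0.

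**Figure D3:**
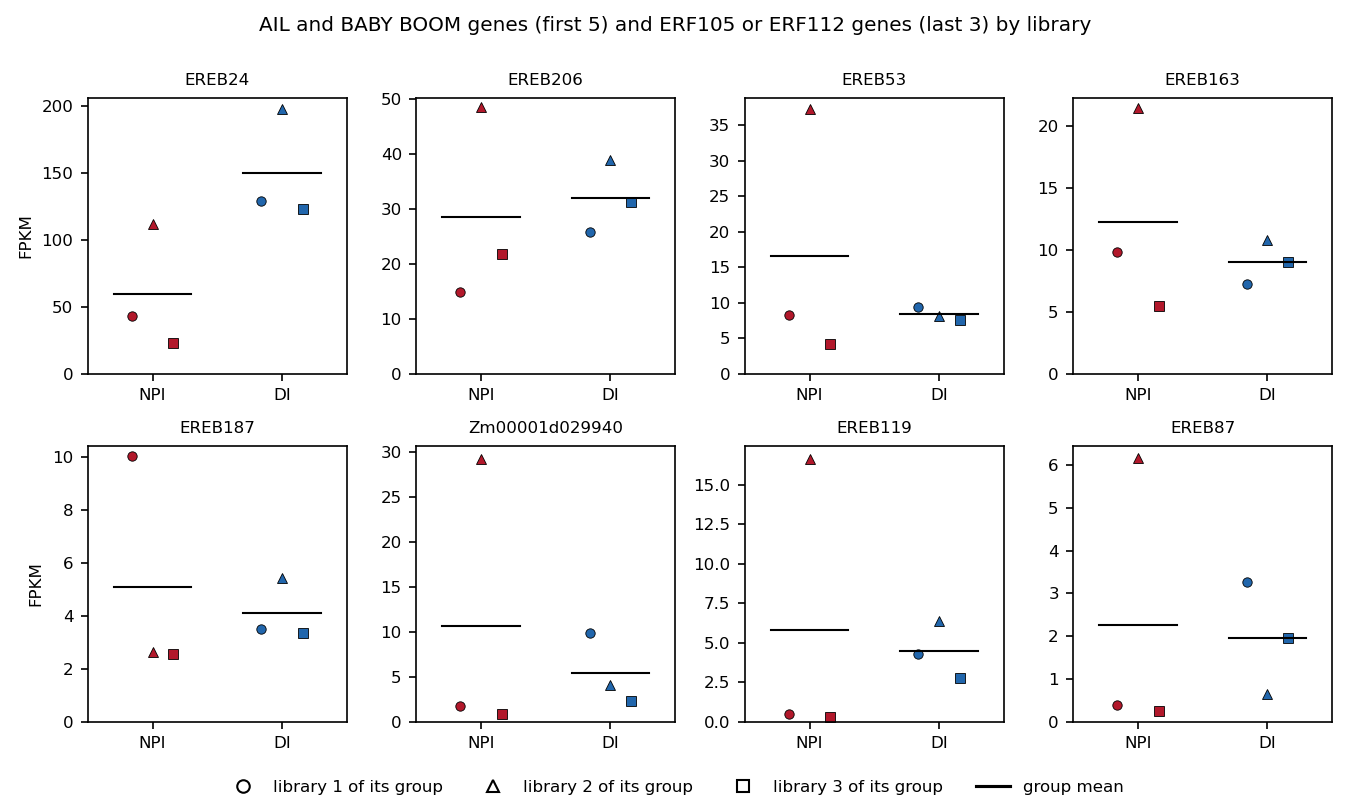
FPKM of the 5 AIL and BABY BOOM genes and of 3 ERF105 or ERF112 genes in each NPI (red) and DI (blue) library, with the group mean as a line and a separate scale per gene. NPI-2 (red triangle) is the highest library for EREB206, EREB53, EREB163 and the 3 ERF genes, as for 27.3% of all tested genes.

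Among NPI libraries, the marker lists for dividing cells, root cap and leaf summed highest in NPI-2, as the AIL and BABY BOOM genes did. NPI-2 was the highest of the 6 libraries for 23.1%, 33.3% and 44.0% of the tested genes of these lists, beside 27.3% of all tested genes. The part of these lists in the differences of the AIL and BABY BOOM genes was not tested. The lists for root hair and for casparian strip and suberin did not move so. Root hair genes summed to 147, 96.7 and 119 FPKM in NPI-1, NPI-2 and NPI-3, against 133, 139 and 152 FPKM in DI. Casparian strip and suberin genes summed to 120, 127 and 226 FPKM in NPI and 112, 103 and 118 FPKM in DI. Leaf genes, for light harvesting, photosystem and carbon fixation proteins, summed to 132, 150 and 110 FPKM in NPI and 91.0, 161 and 58.8 FPKM in DI. The 29 genes of the list for dividing cells summed to 167, 260 and 154 FPKM in NPI-1, NPI-2 and NPI-3, against 200, 279 and 243 FPKM in the DI libraries in the same order, and 20 of the 26 tested lay below 0 (median log2 difference -0.57). All but one of the 29 were above 0 in every library. Of the 3 root cap genes tested, all lay below 0, and the most abundant, root cap protein1, had 27.5, 115 and 38.7 FPKM in NPI, against 109, 96.7 and 78.3 FPKM in DI.

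Of the 42 members of no named group, 10 were higher and 3 lower at an unadjusted edgeR p of 0.05 (23.8% and 7.14%, beside 12.3% and 8.52% of all tested genes). Their median log2 difference was 0.37, and 0.70 without NPI-2 or 0.10 without NPI-3. EREB118 (Zm00001d008546, chromosome 8 from 12513751 to 12515017) had 233, 175 and 139 FPKM in NPI, against 49.0, 89.7 and 72.03 FPKM in DI. The groups were well apart, and it was 2.72-fold higher in NPI (log2 difference 1.44 ± 0.32, SE, n = 3 each; edgeR adjusted p = 0.0989). EREB102, described as an ethylene response factor, had 178, 61.1 and 110 FPKM in NPI and 48.3, 43.4 and 32.6 FPKM in DI, and EREB81 had 70.8, 111 and 53.5 FPKM in NPI and 44.6, 39.3 and 31.5 FPKM in DI. Neither overlapped (log2 differences 1.58 ± 0.45 and 1.06 ± 0.30, SE; edgeR adjusted p = 0.134 and 0.138).

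EREB8 and EREB173 were low but separate, at 6.24 ± 2.46 FPKM in NPI and 1.56 ± 0.699 FPKM in DI for EREB8 and 2.27 ± 0.669 FPKM in NPI and 0.533 ± 0.194 FPKM in DI for EREB173 (SD, n = 3 each). In the other direction, EREB57 (Zm00001d052102, chromosome 4) was 5.84-fold lower in NPI, with 1.16, 0.39 and 0.62 FPKM in NPI, against 2.30, 5.86 and 5.45 FPKM in DI (log2 difference -2.54 ± 0.66, SE, n = 3 each; edgeR adjusted p = 0.118). EREB172, an AP2 domain protein, had 43.3, 41.0 and 37.4 FPKM in NPI, against 54.6, 105 and 76.4 FPKM in DI, with the NPI libraries close together and all below DI (log2 difference -0.88 ± 0.28, SE; edgeR adjusted p = 0.155). EREB127 had 5.30, 4.95 and 7.24 FPKM in NPI and 6.95, 23.4 and 18.5 FPKM in DI, where NPI-3 passed DI-1 by a little.

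**Figure D4:**
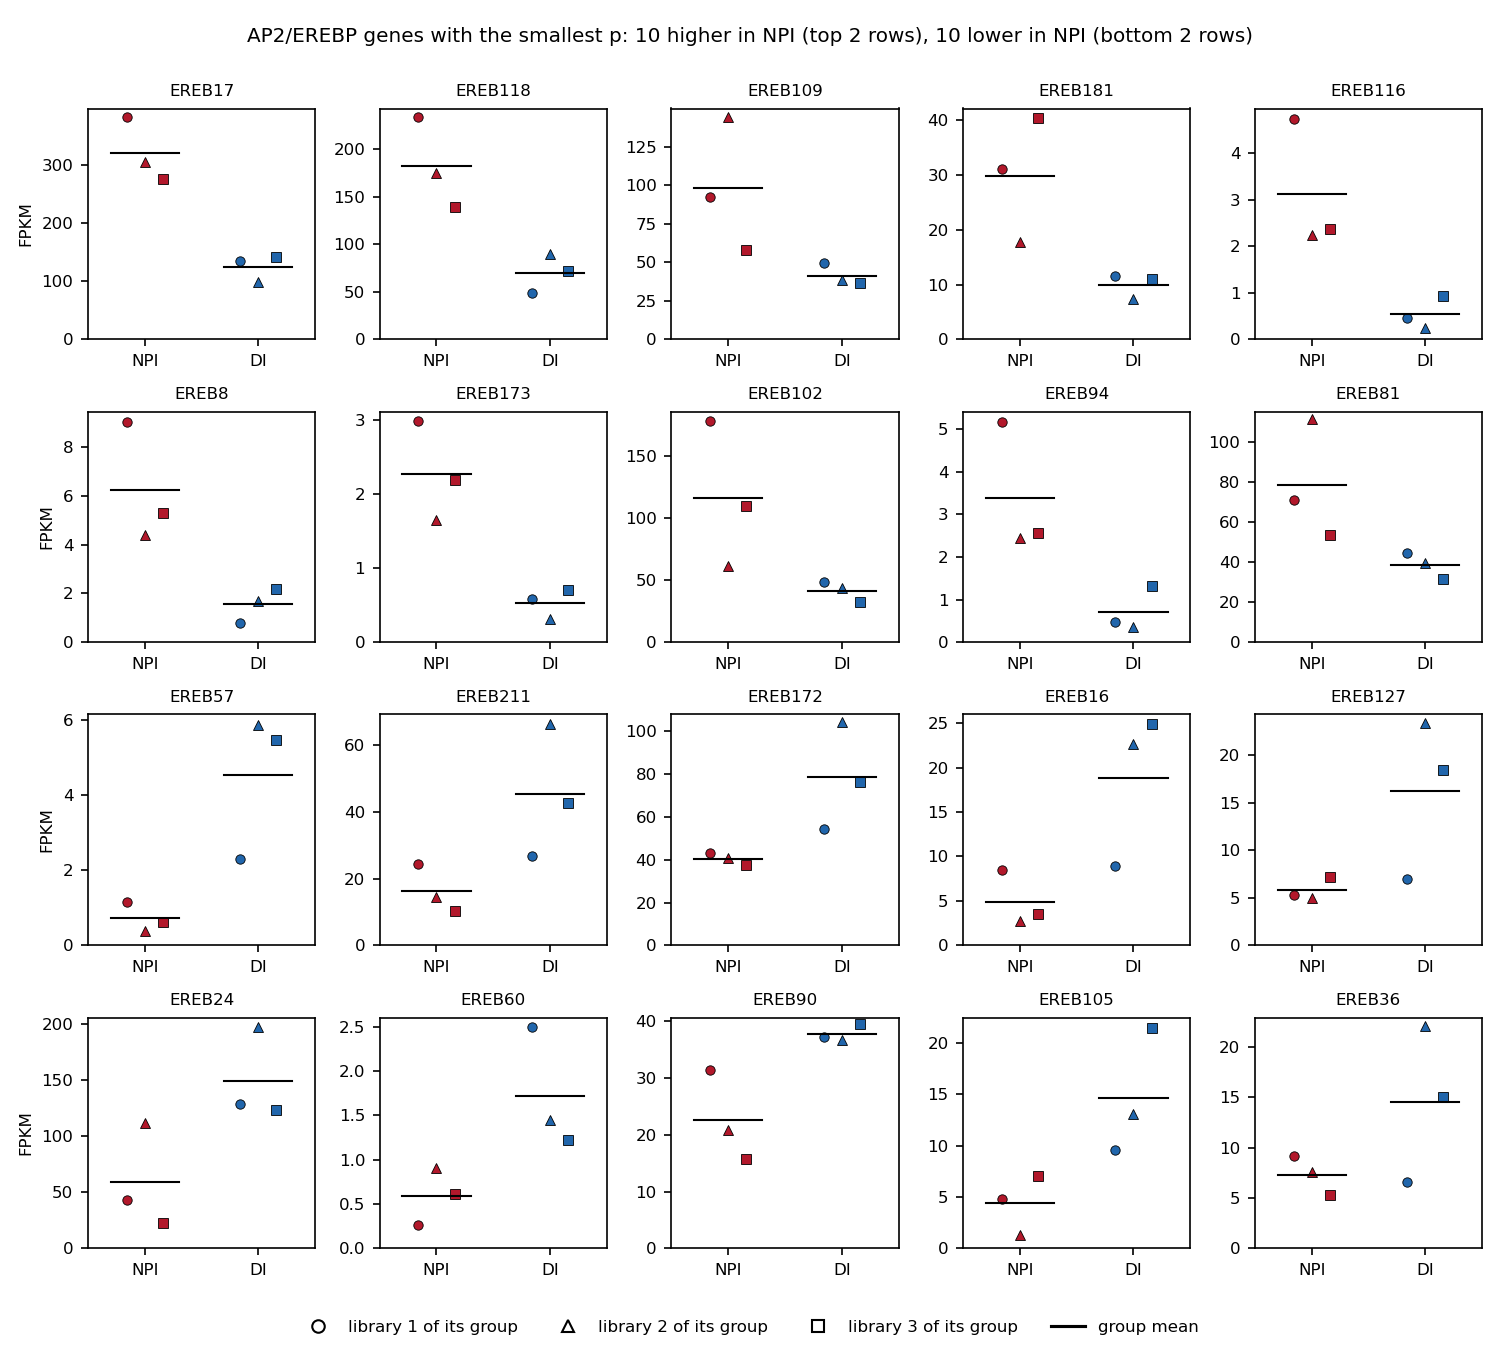
FPKM in each NPI (red) and DI (blue) library for the 10 higher and 10 lower AP2/EREBP genes with the smallest edgeR p, with the group mean as a line and a separate scale per gene. The groups do not overlap in any of the 10 higher genes, and they overlap in EREB127 and EREB36 among the 10 lower ones. The genes were chosen by p in these same libraries, which favours groups without overlap. Of all tested genes, 13.0% lay higher and 13.7% lower without overlap.

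EREB126, described as RAV1, and EREB162, described as TEM1, belong to the branch whose proteins pair the AP2 domain with a B3 domain. EREB126 averaged 83.8 ± 16.8 FPKM in NPI and 83.5 ± 19.7 FPKM in DI, and EREB162 averaged 2.35 ± 0.0777 FPKM in NPI and 2.44 ± 0.659 FPKM in DI (SD, n = 3 each). Their log2 differences were 0.09 ± 0.31 and 0.00 ± 0.42 (SE). EREB63, described as TINY, a DREB-type protein whose overproduction stunts Arabidopsis, had 2.84, 1.52 and 3.56 FPKM in NPI and 3.21, 3.16 and 1.59 FPKM in DI (log2 difference 0.11 ± 0.59, SE).

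APETALA 2 is best known for setting floral organ identity, and both genes of that description were present in root tips. EREB197 had 18.5, 20.6 and 6.12 FPKM in NPI and 5.97, 6.74 and 6.21 FPKM in DI. NPI-3 sat among the DI libraries, and the others were about 3 times as high (log2 difference 1.28 ± 0.40, SE, n = 3 each; edgeR adjusted p = 0.154, DESeq2 adjusted p = 0.0417). EREB212 had 18.0, 3.67 and 6.53 FPKM in NPI and 3.46, 4.76 and 7.47 FPKM in DI, and was high only in NPI-1.

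Some members are neighbours. Each member was set beside the next member along its chromosome, and 21 such pairs lay within 50 kb, in 16 runs. In 8 pairs both genes were tested, of which 6 had estimates of the same sign. Some of these 8 pairs share a gene, and 84 of the 116 tested members lay above 0. The longest run holds 4 genes on chromosome 1, EREB179 (17775779 to 17777344), EREB180 (17807124 to 17808643), EREB181 (17833120 to 17833935) and EREB182 (17839868 to 17840788). These are coordinates of the deposited table, for which the sources used here name no genome build.

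EREB180, described as RAP2-3 and linked to waterlogging tolerance in maize, had 103, 41.4 and 84.0 FPKM in NPI and 44.9, 34.2 and 45.1 FPKM in DI. EREB181 had 31.2, 17.7 and 40.5 FPKM in NPI, against 11.6, 7.37 and 11.1 FPKM in DI, and EREB182 had 113, 53.4 and 138 FPKM in NPI, against 48.6, 48.4 and 50.6 FPKM in DI. EREB181 and EREB182 did not overlap between groups, EREB180 did through NPI-2, and in all 4 genes NPI-2 was the lowest NPI library. The log2 differences along the run were 0.48, 0.98, 1.67 and 1.15 (edgeR adjusted p = 0.578, 0.232, 0.118 and 0.189). Without NPI-2 they were 0.84, 1.31, 1.99 and 1.5, and the last 3 passed (edgeR adjusted p = 0.0311, 0.0283 and 0.0270). Near-identical copies can share counts, and how reads were assigned among the neighbours was not tested.

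A run of 3 on chromosome 7, from 146027044 to 146039307, holds EREB36 (DREB1B), EREB23, described as DRE-binding protein 3, and EREB115 (DREB1B). EREB36 had 9.12, 7.54 and 5.28 FPKM in NPI and 6.57, 22.1 and 15.0 FPKM in DI, and its groups overlapped through DI-1 (log2 difference -0.93 ± 0.47, SE, n = 3 each; edgeR adjusted p = 0.307). EREB23 and EREB115 had log2 differences of -0.19 and -0.07. In both, NPI-1 and NPI-2 were close together and NPI-3 was about 2 times as high.

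**Figure D5:**
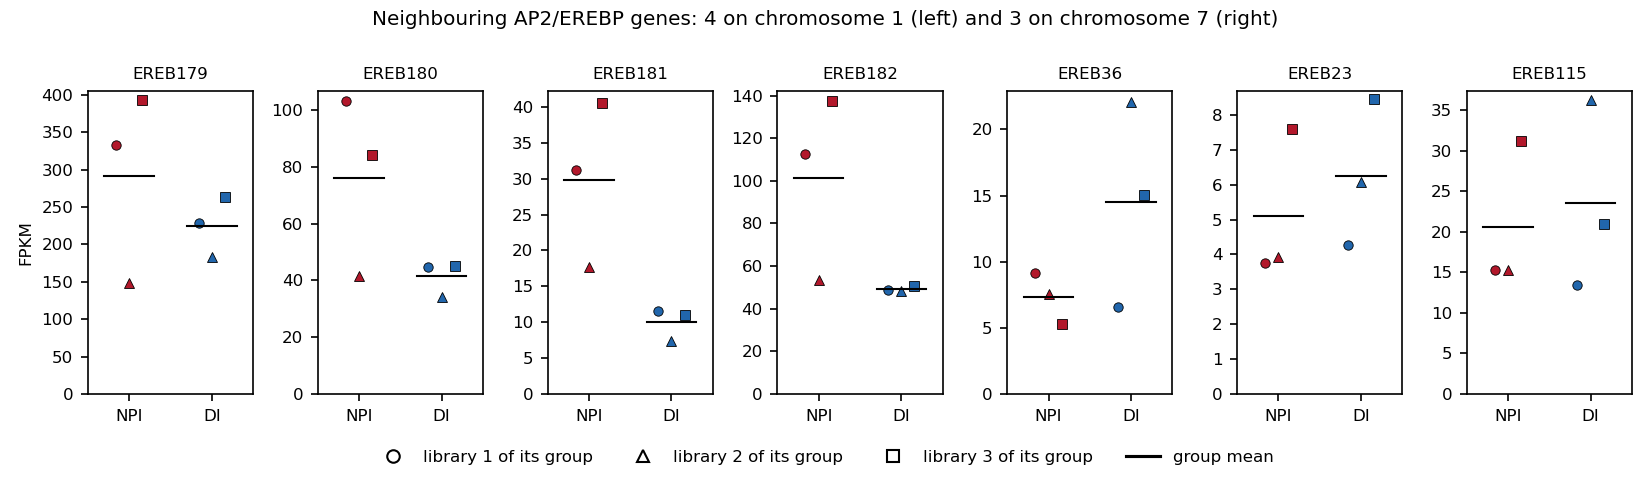
FPKM in each NPI (red) and DI (blue) library for 4 neighbouring AP2/EREBP genes on chromosome 1 and 3 on chromosome 7, with the group mean as a line and a separate scale per gene. On chromosome 1, NPI-1 and NPI-3 lie above all DI libraries in each gene, and on chromosome 7 the groups overlap in each gene.

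Genes around the family in its pathways did not pass the threshold either. Of 33 tested genes of ethylene synthesis and signalling, which acts upstream of many ERF genes, 22 lay above 0 (median log2 difference 0.32), and at an unadjusted edgeR p of 0.05 1 was higher and 4 were lower in NPI (3.03% and 12.1%, beside 12.3% and 8.52% of all tested genes). Of 59 tested genes for dehydrins, late embryogenesis abundant proteins and the like, among them targets of DREB proteins, 38 lay above 0 (median 0.55), with 11 higher and 5 lower (18.6% and 8.47%). Of 26 tested genes in the low oxygen list, where group VII factors act in Arabidopsis, 14 lay above 0 (median 0.01), with 1 higher and 3 lower (3.85% and 11.5%). The wording of that last list also took in 3 cinnamyl alcohol dehydrogenase genes.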

How the data were processed

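RNA was measured in 3 NPI and 3 DI root tip libraries. FastQC 0.10.1, HISAT2 2.0, StringTie 1.3.4 and edgeR are named in the submitters' processing notes, and the sources used here state neither genome build nor strand handling. The authors deposited one table with estimated counts and FPKM per library, and the deposited estimated counts are whole numbers. Total counts of 57792439 to 71957443 make counting error a minor part of the spread for all but the lowest tested genes.

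The members and all lists were chosen with earlier results of these data known, and classes by description were formed after values were seen. Abbreviations in list patterns were matched with case. edgeR 4.0.16 in R 4.3.3 (quasi-likelihood in its older form, TMM, two-sided, Benjamini-Hochberg adjustment) was fitted on the 21902 genes whose FPKM averaged 1 or more, with a threshold of 0.05 on the adjusted p. The SE is the size of the log2 difference over the root of F. Library differences are log2 CPM (prior count 1) minus the DI mean, and relative length is count over FPKM, set against the median gene. Neighbours are members that follow each other along a chromosome with less than 50 kb between them.

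Genes named by rule were the 10 higher and 10 lower members of smallest p, the 2 most abundant of each group, and members described as BABY BOOM, DREB2A or TINY, among other words that matched no tested member. Other genes named were chosen after their values were seen. Alternatives used DESeq2 1.42.0, limma 3.58.1 on log2(FPKM + 1) or log2(FPKM + 0.1), other filters, a replicate block, removal of the length trend and each library left out. The script was tested on simulated data. Correlations of deviations between libraries of the same number were -0.28, 0.20 and 0.20, so the numbers were not taken to pair the samples. No reference sequence was used. Figures were drawn with matplotlib 3.10.9.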

Additional observations from a re-analysis of the deposited data

How the results depend on the processing

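Under edgeR with other size factors, without a filter, with filterByExpr, with limma or with the newer quasi-likelihood estimate (chosen after seeing the data), 0 members passed the threshold, as with the main settings, while DESeq2 called 17. Leaving out one library in turn gave 0 to 17 members past the threshold, the 17 coming without NPI-2. In the same way, 13 to 38 members were higher and 3 to 9 lower at an unadjusted edgeR p of 0.05, beside 23 and 7, and the median log2 difference ran from 0.14 to 0.70, beside 0.43. That median was 0.20 and 0.23 with limma on log2(FPKM + 1) and log2(FPKM + 0.1), on which the median of all genes was -0.04 and -0.06, not 0.07. With the replicate number as a block, 0 members passed, 22 were higher and 7 lower at the unadjusted level, and the median was 0.28. In this block NPI and DI libraries share only a number.

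Of 31 genes named by rule, 8 changed sign in at least one of 465 alternative values, and the cause was not tested. Zm00001d008665 (0.09) was at -0.09 and -0.10 with the limma fits, -0.04 with the block and -0.07 with the length trend removed. EREB156 (0.26) was at -0.11, -0.12, -0.05 and -0.09 under the same settings. EREB63 (0.11) was at -0.01 and -0.02 with limma and -0.27 without the length trend. With each library left out, the log2 differences ran from -0.32 to 0.43 for Zm00001d008665, -0.63 to 0.64 for EREB156, -0.25 to 0.43 for EREB63, -0.01 to 0.81 for EREB148, -0.84 to 0.13 for EREB200, -0.64 to 0.15 for EREB206, -0.84 to 0.29 for EREB79 and -0.29 to 1.41 for EREB53. Depth limits the members near 1 FPKM most.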
